A study of Mus musculus with 3 samples.

Results

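Neuropeptides are made as long precursors, packed into dense core vesicles and cut there into short signalling peptides. The 39 mouse genes described here cover that route and were picked by symbol from the 41388 genes in the files. They are 27 peptide precursors, 6 granins and granin-like proteins, and 6 genes of peptide processing and vesicle release. All 39 symbols matched an Ensembl identifier.

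RNA sequencing was done on cells sorted by flow cytometry for EGFP from dorsal root ganglia (DRG), the sensory ganglia beside the spinal cord, of mouse embryos at 12.5 days post coitum. EGFP reports Ret, the receptor tyrosine kinase that answers to GDNF family ligands. The sample labels give the genotype as Tg(Ret-EGFP)SJ/ on C57BL/6, whereas the series text describes heterozygotes with EGFP placed in the Ret locus of C57BL/6J mice; the difference was not resolved. There was 1 group, with no second condition, and it consisted of 3 libraries. Library B pooled 340 ganglia of 17 embryos (10 male and 7 female), library C 300 ganglia of 15 embryos, and library D 60 ganglia of 3 embryos. Ganglia came from T11 to S1, and the embryos of each pool from different mothers. Each library therefore averages over embryos and over every sorted cell, and only pools can serve as replicates.

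The deposited counts summed to 18072199, 11666241 and 20966139 for B, C and D, and the 39 genes took 0.188%, 0.193% and 0.133% of them. No pair of libraries agreed within sampling noise. TPM (transcripts per 1000000) divides each count by gene length and scales every library to the same sum, so levels of different genes can be set side by side. All 14 neuron markers were detected, led by Tubb3, and summed to 40133, 31924 and 25380 TPM in B, C and D, and the spinal cord list stood at a summed 0.22 to 0.651 TPM with Olig2, Dbx1 and Lbx1 at 0 counts. Sums of other marker lists also differed between libraries. Glia stood at 3061, 1518 and 4804 TPM (10 of 10 detected) and erythroid cells at 2794, 1405 and 400.3 TPM (5 of 9). Sympathetic and chromaffin cells stood at 188, 70.7 and 55.4 TPM (5 of 11). Mesenchyme stood at 55.8, 45.1 and 291 TPM (6 of 10) and endothelium at 17.6, 5.26 and 5.80 TPM (1 of 8). The median mesenchyme marker stood at 3.30, 2.46 and 1.60 TPM, lowest in D, so the high sum there did not extend to most of that list.

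A peptide precursor enters the secretory pathway through its signal peptide. Granins help to sort cargo into dense core vesicles and are themselves cut into peptides. In the vesicle the prohormone convertases PC1/3 and PC2 cut after pairs of basic residues, carboxypeptidase E trims the basic residues that remain, and PAM amidates the C terminus of peptides that need it. In adult DRG, CGRP and substance P mark peptidergic nociceptors, while somatostatin and the natriuretic peptide of Nppb mark a class of itch neurons. The peptides act on G protein-coupled receptors or, for the natriuretic peptides, on receptor guanylyl cyclases.

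Most of the route was detected at this stage. At 1 TPM or more in every library, 27 of the 39 genes were detected, or 69.2%. They were 15 of 27 precursors, 6 of 6 granins and 6 of 6 processing genes. By the same rule 28.7% of all genes and 50.2% of protein-coding genes were detected. The median of mean TPM was 30.0 over the detected members and 13.6 over all detected genes. Tac2 and Crh had no counts in any library, which allows up to 3 counts per library, or 0.166, 0.257 and 0.143 CPM in B, C and D. The other 10 had counts but missed the limit in at least 1 library.

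**Figure D1:**
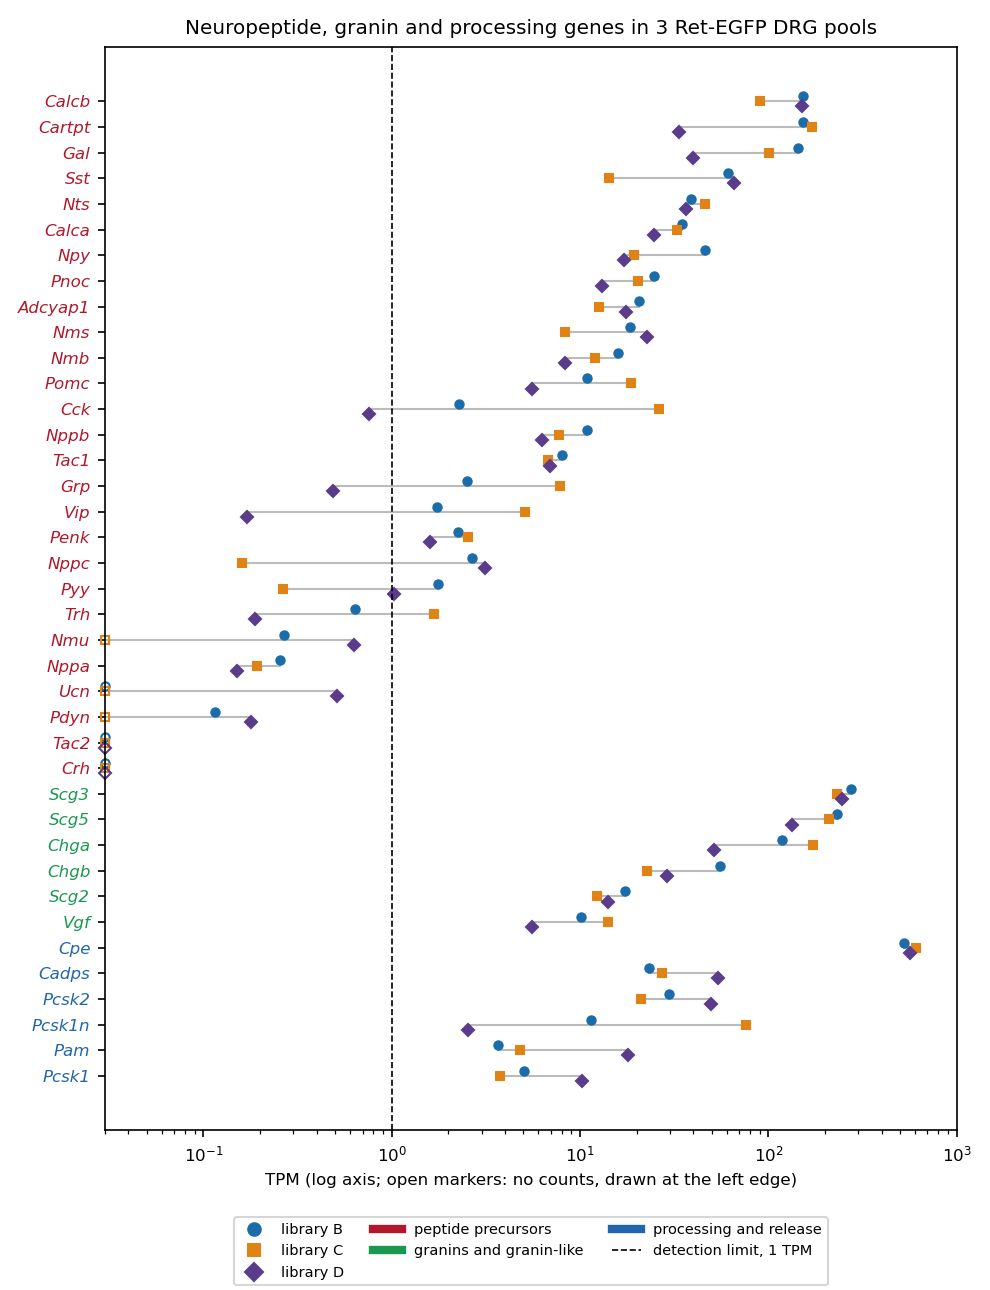
Level of each of the 39 genes in TPM (log axis) in libraries B, C and D, grouped by role, with a dashed line at the detection limit of 1 TPM and open markers at the left edge for genes with no counts. Cpe is the highest gene in each library, and Cck, Vip and Pcsk1n spread widest of the genes with counts in every library, each with its lowest point in library D.

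CGRP, a vasodilating peptide of nociceptors, is encoded by both Calca and Calcb. Calcb (ENSMUSG00000030666, chr7:114718643-114723365, plus strand, in the GRCm38 coordinates of the files) stood at 153 TPM in library B, 89.8 in C and 150.4 in D, with 131 ± 35.7 TPM on average (SD, n = 3). Calca (ENSMUSG00000030669, chr7:114631480-114636357, minus strand) stood at 34.6, 32.6 and 24.8 TPM. Calcb lay above Calca in each library, with log2 ratios of 2.14, 1.46 and 2.59 for B, C and D, and the values of the genes did not overlap. The mean log2 ratio was 2.07 ± 0.57 (SD, n = 3), a 4.19-fold difference. An exact two-sided sign-flip test over 3 libraries gave p = 0.25, the smallest it can give, and an adjusted p of 0.32 over the 9 pairs compared. Calca also encodes calcitonin from another splice form, which gene counts cannot separate from CGRP.

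The genes lie 82285 bases apart and part of their coding sequence is nearly the same, so reads from that part are uncertain between them. The most similar stretch runs over 170 bases in 2 exons of each gene, with 11 mismatches, 93.5% identity and a longest identical run of 60 bases. It is shown, joined across the exons and 5′ to 3′ on the coding strand (GRCm38, GENCODE M21), to let the shared run be seen; capitals mark the mismatched bases. Calca-201 spans chr7:114632458-114634495 (minus strand) and Calcb-201 spans chr7:114720187-114722116 (plus strand).
Calca: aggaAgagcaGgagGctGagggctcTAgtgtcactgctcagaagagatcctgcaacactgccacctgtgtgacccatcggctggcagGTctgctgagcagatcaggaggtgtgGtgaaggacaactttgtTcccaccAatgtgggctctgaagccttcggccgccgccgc
Calcb: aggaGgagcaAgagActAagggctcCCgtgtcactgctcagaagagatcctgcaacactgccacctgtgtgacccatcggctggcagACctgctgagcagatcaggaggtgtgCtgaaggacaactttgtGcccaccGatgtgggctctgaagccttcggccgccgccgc

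Substance P, another peptide of nociceptors, comes from Tac1. Tac1 stood at 7.99 TPM in library B, 6.72 in C and 6.91 in D, and its highest level was 1.19 times its lowest. Tac2, which encodes neurokinin B, had 0 counts throughout. With Tac2 set at its limit of 3 counts per library, Tac1 was at least 15.8-fold higher, with a mean log2 bound of 3.98 ± 0.42 (SD, n = 3; exact sign-flip p = 0.25, adjusted p = 0.32). Tac1 was thus among the steadiest members on the TPM scale, at a low level.

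Calcb, Cartpt and Gal had the highest mean levels of the 27 precursors. Cartpt (ENSMUSG00000021647), the gene of CART peptides, stood at 154 TPM in library B, 170.4 in C and 33.7 in D. Gal (ENSMUSG00000024907) encodes galanin, a peptide of developing and injured sensory neurons, and stood at 144, 101 and 39.7 TPM. Both were high in B and C and low in D. In bulk RNA, fewer cells of a type and less RNA per cell cannot be told apart, here or in any later comparison. Sst, which encodes somatostatin, went another way, with 60.7 TPM in library B, 14.2 in C and 65.4 in D, so C alone was low. The order of Gal and Sst therefore turned, with log2 ratios of 1.25 (B), 2.82 (C) and -0.72 (D). Its mean of 1.12 ± 1.77 (SD, n = 3) was smaller than its spread (exact sign-flip p = 0.50, adjusted p = 0.56).

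The 5 highest precursors held 73.8%, 72.9% and 71.3% of all precursor TPM in B, C and D. They were Cartpt, Calcb, Gal, Sst and Npy in B, Cartpt, Gal, Calcb, Nts and Calca in C, and Calcb, Sst, Gal, Nts and Cartpt in D. Calcb alone made up 20.3%, 14.9% and 32.9% of precursor TPM, and Cartpt 20.3%, 28.2% and 7.38%. The leading peptide was therefore Cartpt in B and C and Calcb in D, although in B the first 2 differed by under 1 TPM.

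Of the mid-level precursors, some varied little in TPM. Nts, which encodes neurotensin, stood at 38.8 TPM in library B, 46.4 in C and 36.5 in D. Adcyap1, the gene of the neurotrophic peptide PACAP, stood at 20.6, 12.5 and 17.5 TPM. The ranges of these genes stayed within 1.27-fold and 1.64-fold. Npy, the gene of neuropeptide Y, a cotransmitter of sympathetic neurons, stood at 45.8 TPM in library B, 19.4 in C and 17.2 in D, so B alone was high. Pnoc, the nociceptin precursor gene, stood at 24.8, 20.3 and 13.1 TPM, with B highest and D lowest. The sympathetic and chromaffin markers Dbh, which makes noradrenaline, and Th, which makes its precursor dopa, were also highest in B. Dbh stood at 84.0, 16.8 and 10.7 TPM, Th at 62.1, 29.3 and 16.4 TPM, and Ddc, the next on that list, at 8.13, 7.81 and 14.6 TPM. The part of such cells in the level of Npy was not tested.

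Nms, which encodes neuromedin S, stood at 18.5 TPM in library B, 8.31 in C and 22.6 in D. Like Sst, it was lowest in C. Nmb, the gene of neuromedin B, a bombesin-like peptide, stood at 15.9, 12.0 and 8.34 TPM, highest in B. Its exons share 163 of 793 bases (20.6%) with Sec11a, a signal peptidase gene on the same strand at 151, 161 and 148 TPM, so reads from those bases are uncertain. Nppb stood at 10.9, 7.69 and 6.31 TPM, again highest in B. Pomc, the precursor gene of melanocortins and beta-endorphin, stood at 10.9, 18.5 and 5.54 TPM, highest in C. Penk, the enkephalin precursor gene, was the lowest detected member, with 2.24, 2.55 and 1.59 TPM.

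A further 5 precursors were under 1 TPM in at least 1 library yet had over 10 counts in another. Cck, the cholecystokinin gene (ENSMUSG00000032532, chr9:121489825-121495689, minus strand), stood at 2.27 TPM in library B, 26.3 in C and 0.758 in D, from 14, 108 and 4 counts. Grp, which encodes the spinal itch transmitter gastrin-releasing peptide, stood at 2.51, 7.87 and 0.49 TPM from 24, 50 and 4 counts. Vip, the vasoactive intestinal peptide gene, stood at 1.74, 5.13 and 0.17 TPM from 24, 47 and 2 counts. In each of these, C was highest and D lowest. Trh, the thyrotropin-releasing hormone gene, followed the same order at lower levels, with 0.641, 1.69 and 0.187 TPM. Nppc, which encodes C-type natriuretic peptide, instead stood at 2.66 TPM in library B, 0.16 in C and 3.11 in D, from 25, 1 and 25 counts. Library C, which is highest for the other 4, was the low one for Nppc.

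The remaining precursors were near the limit of counting. Pyy, the peptide YY gene, had 10 counts in B, 5 in D and 1 in C. Nppa, the gene of atrial natriuretic peptide, had 2, 1 and 1 counts, and 61.5% of its exon bases are shared with the antisense gene Gm13054. Pdyn, the dynorphin precursor gene, had 3, 0 and 4 counts, Nmu, the neuromedin U gene, had 2, 0 and 4, and Ucn, the urocortin gene, had 0, 0 and 2. No fold is given for them.

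All 6 granins were detected, with mean levels from 9.93 to 251 TPM. Scg3 encodes a granin that binds chromogranin A and cholesterol, and it stood at 276 TPM in library B, 231 in C and 245 in D. Scg5, which encodes 7B2, a chaperone of PC2, stood at 232, 211 and 134 TPM. In TPM, Scg3 varied little between libraries, and D was low for Scg5. Scg3 lay above Scg2, the secretogranin II gene (17.4, 12.3 and 14.0 TPM), by a mean log2 of 4.10 ± 0.12 (SD, n = 3; exact sign-flip p = 0.25, adjusted p = 0.32), the smallest SD of the 9 pairs.

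Chga, the chromogranin A gene, stood at 118 TPM in library B, 172 in C and 51.5 in D. Chgb, the chromogranin B gene, stood at 55.4, 22.8 and 29.1 TPM. Chga was highest in C and lowest in D, while Chgb was high in B alone. Chgb lay below Chga in each library, with log2 ratios of -1.09, -2.92 and -0.82 and a mean of -1.61 ± 1.14 (SD, n = 3; exact sign-flip p = 0.25, adjusted p = 0.32). Chga is also a product of chromaffin cells, whose marker list was highest in B and lowest in D; their part in the level of Chga was not tested. Vgf, the gene of a neurotrophin-induced granin-like precursor, stood at 10.1, 14.1 and 5.54 TPM, in the same order of libraries as Chga.

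Cpe (ENSMUSG00000037852), which encodes carboxypeptidase E, was the most abundant of the 39 genes, at 529 TPM in library B, 605 in C and 565 in D. Its mean of 566 ± 38.2 TPM (SD, n = 3) lay at percentile 97.5 of all detected genes, and it alone held 25.6%, 30.2% and 34.6% of the members' TPM. It was also the steadiest member on the TPM scale, with a highest level 1.14 times the lowest. By CPM Cpe stood at 550, 649 and 434 in B, C and D, lowest in D. Pam, the gene of the amidating enzyme, stood at 3.65 TPM in library B, 4.78 in C and 18.04 in D, so D alone was high. Cpe exceeded Pam by log2 ratios of 7.14, 6.95 and 4.96, with a mean of 6.35 ± 1.21 (SD, n = 3; exact sign-flip p = 0.25, adjusted p = 0.32). The ratio depends on the length of Pam, which is 11892 bases in the files against 2087 for Cpe: per library size alone, without length, its mean log2 was 3.86.

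Of the convertases, Pcsk2 (PC2) lay above Pcsk1 (PC1/3). Pcsk2 stood at 29.8 TPM in library B, 21.1 in C and 49.5 in D, and Pcsk1 at 5.03, 3.76 and 10.2 TPM. Both were highest in D and lowest in C, so their log2 ratio stayed between 2.27 and 2.54, with a mean of 2.42 ± 0.14 (SD, n = 3; exact sign-flip p = 0.25, adjusted p = 0.32). Scg5, the chaperone gene, exceeded Pcsk2 by 2.96, 3.32 and 1.43, with a mean of 2.57 ± 1.00 (SD, n = 3; same p-values); without division by length this mean log2 was 0.24. Cadps, which encodes the dense core vesicle priming factor CAPS1, stood at 23.3, 27.1 and 53.7 TPM, with D high.

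Pcsk1n (ENSMUSG00000039278, chrX:7919822-7924410, plus strand) encodes proSAAS, an inhibitor of PC1/3. It stood at 11.4 TPM in library B, 76.1 in C and 2.54 in D, from 226, 1001 and 43 counts. The libraries differed in the order of inhibitor and enzyme. The log2 ratio of Pcsk1n to Pcsk1 came to 1.17, 4.30 and -1.96, and its mean of 1.17 ± 3.13 (SD, n = 3) lay well within its spread (exact sign-flip p = 0.75, adjusted p = 0.75). Pcsk1n shares 135 exon bases with the antisense gene Eras, which had 0 counts. Penk and Pcsk2 share exon bases with antisense genes at or under 1.82 TPM. Pam shares 188 bases (1.58%) with B230216N24Rik, a gene on the same strand at 3.13, 3.02 and 4.19 TPM, so reads from those bases are uncertain.

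**Figure D2:**
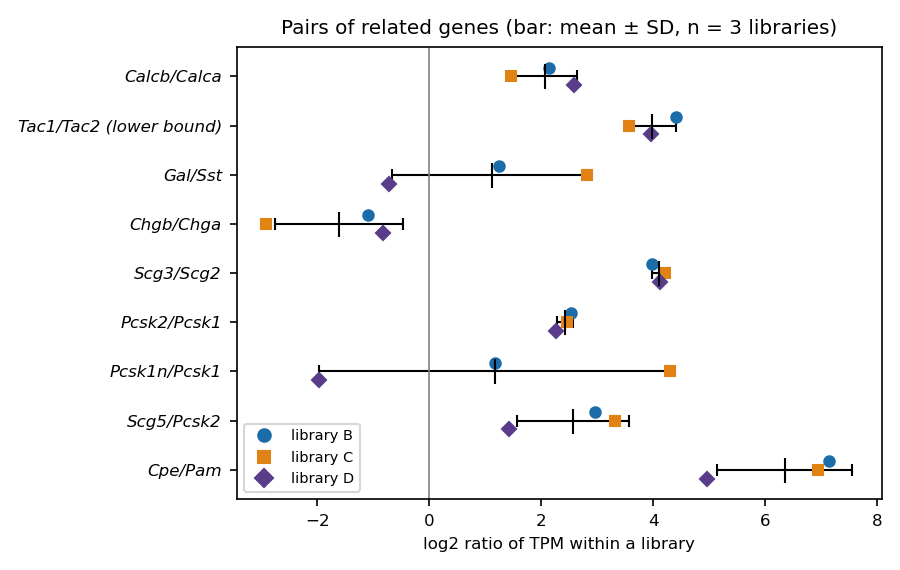
Log2 ratio of TPM within each library for the 9 pairs of related genes (points: libraries B, C and D), with the mean and SD over the 3 libraries as tick and bars and a line at 0. Scg3/Scg2 and Pcsk2/Pcsk1 hold close together, whereas Gal/Sst and Pcsk1n/Pcsk1 lie on both sides of 0.

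By role, precursors summed to 755, 604 and 457 TPM across B, C and D. Granins summed to 709, 664 and 479 TPM, and processing genes to 602, 738 and 699 TPM. Precursors and granins were thus both lowest in D, and processing genes lowest in B. Of the members' total, precursors held 31.5 ± 4.47%, granins 32.2 ± 2.62% and processing genes 36.2 ± 6.83% (SD, n = 3). Without division by length, the share of precursors was 17.2% and that of processing genes 49.4%.

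**Figure D3:**
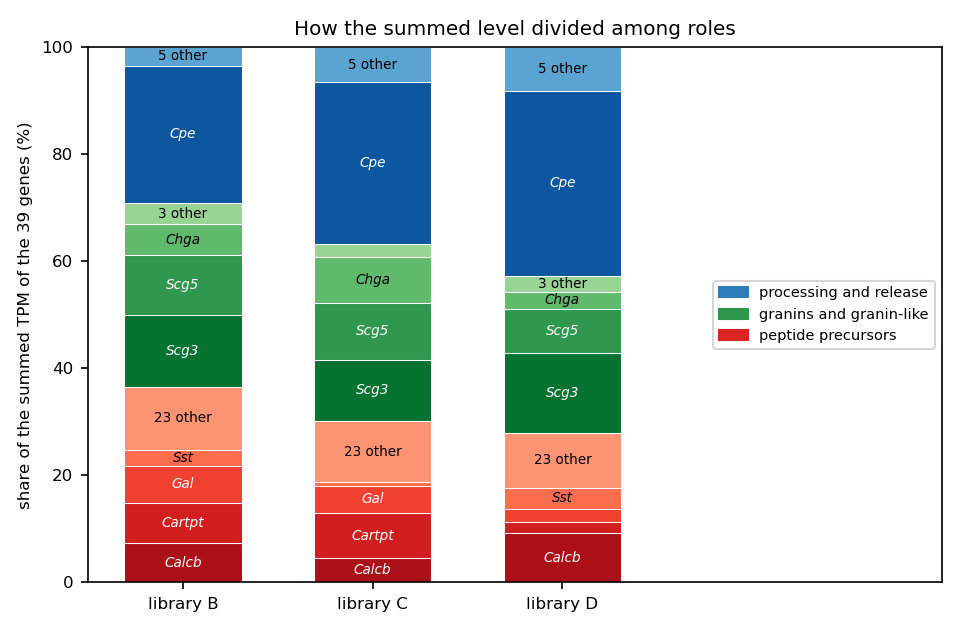
Share of the summed TPM of the 39 genes (%, one bar per library) held by precursors (red), granins (green) and processing genes (blue); within the red block the order from the bottom is Calcb, Cartpt, Gal, Sst and the 23 other precursors. Cpe takes the largest block of any 1 gene, from 25.6% in B to 34.6% in D.

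Library D came from the fewest embryos, so it was set against B and C in edgeR's quasi-likelihood test, fitted and adjusted (Benjamini-Hochberg) over all 15727 genes tested, 33 of the members among them; Tac2, Crh, Nmu, Nppa, Pdyn and Ucn had too few counts. The lone library is assumed to vary like the others, and 1 residual degree of freedom remains. No member passed an adjusted p of 0.05, as no gene did (0%); 12 of 33 members had an unadjusted p under 0.05, against 19.4% of all genes tested. DESeq2 called 5 of 33 members lower, against 2.07% of genes, namely Cartpt, Cck, Chga, Gal and Pcsk1n. The edgeR fit without the filter on low counts called these and Grp and Vip lower, against 2.55% of genes.

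On this scale (log2 ratio after TMM normalization) 26 of 33 members lay lower in D and 7 higher, with a median of -1.14, against -0.02 over all genes tested. Over 2-fold lower were 18 of 33 members, against 22.1% of genes, and over 2-fold higher was 1 of 33, Pam, against 20.8% of genes. Precursors were lower for 18 of 21 (13 of them over 2-fold) with a median of -1.29. Granins were lower for 6 of 6 (4 over 2-fold) with a median of -1.27. Processing genes divided into 2 lower and 4 higher, with a median of 0.32. Some members that varied little in TPM were among the lower ones on this scale, with Nts at -0.93, Scg3 at -0.75 and Cpe at -0.71. None of these differences passed the edgeR test, and the counts are descriptions. Marker lists moved alongside. In D 11 of 14 neuron markers were lower (median -0.64), as were 9 of 10 sympathetic and chromaffin markers (-2.29) and 9 of 9 erythroid markers (-2.97), while 8 of 10 glial markers were higher (0.81). Their part in the members' values was not tested.

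The lowest adjusted p was that of Cartpt, whose log2 ratio in D was -2.97 ± 0.54 (approximate SE; edgeR adjusted p = 0.17). Gal stood at -2.32 ± 0.56 and Chga at -2.21 ± 0.54 (edgeR adjusted p = 0.19 each). In these 3 genes each of the other libraries lay above D also in TPM. Scg5 stood at -1.43 ± 0.45 and Vgf at -1.84 ± 0.60 (edgeR adjusted p = 0.21 each). Pomc stood at -2.12 ± 0.74 and Pnoc at -1.48 ± 0.52 (edgeR adjusted p = 0.23 each). For Scg5 and Pnoc the order of libraries in TPM was B, C, D, and for Vgf and Pomc it was C, B, D. Calcb, at -0.38 ± 0.51, Nms, at 0.07 ± 0.67, and Sst, at 0.12 ± 0.83, had ratios smaller than their errors. So the low values in D did not extend to every abundant precursor. Pam, the only member over 2-fold higher, stood at 1.39 ± 0.48 (edgeR adjusted p = 0.22).

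Library C sets part of these values. Without C, the log2 ratio of D against B alone was -1.68 for Cck (-4.90 with C), -2.75 for Pcsk1n (-4.83), -2.38 for Grp (-4.06), -2.89 for Vip (-4.93) and -1.52 for Trh (-3.22). Without B, the ratio of Chgb was -0.39 in place of -1.11. Low counts widen the error further: Vip, with 2 counts in D, was 25.03-fold lower per total count (95% exact binomial interval 6.68 to 211, counting error only), and Trh, also with 2, was 7.76-fold lower (1.91 to 68.0).

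**Figure D4:**
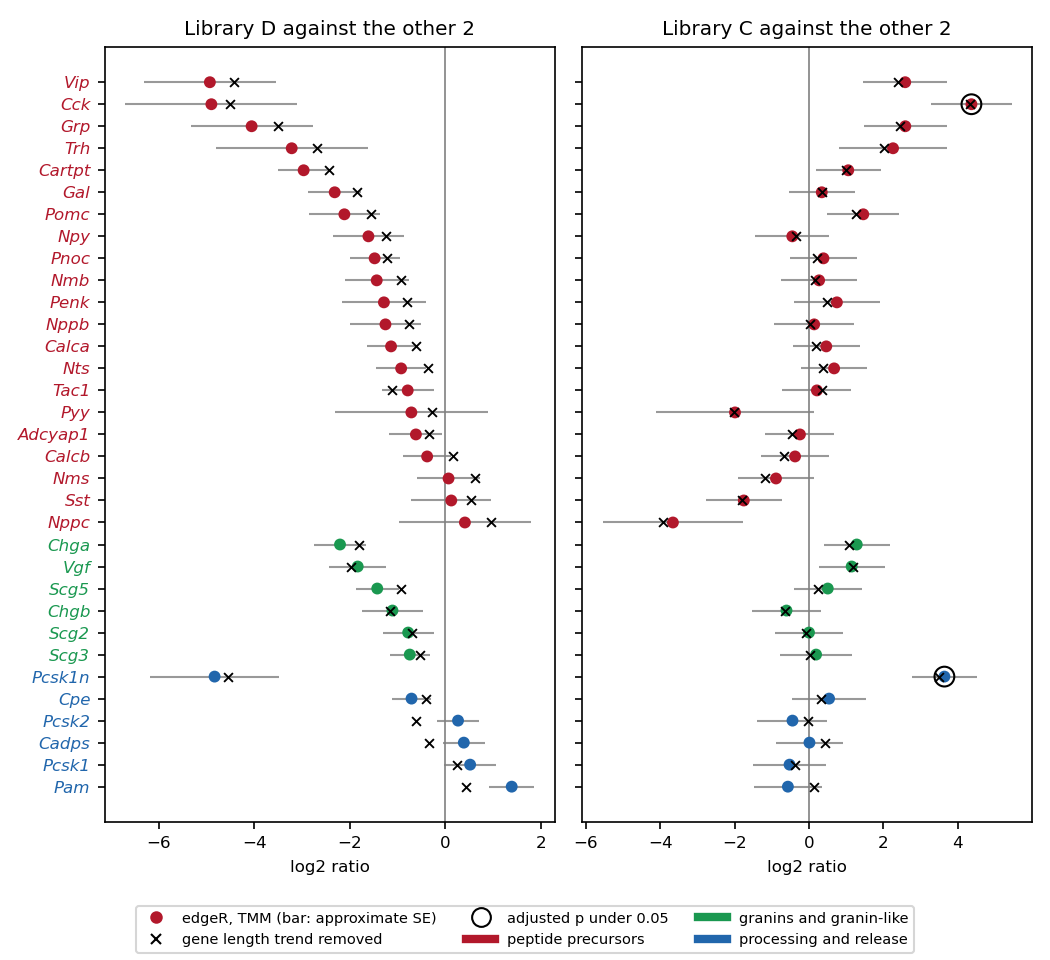
Log2 ratio of each tested member in library D (left) and library C (right) against the other 2 libraries, from edgeR with approximate SE (points and bars, coloured by role) and after the trend with gene length was removed (crosses); circles mark an adjusted p under 0.05. In D all granins lie left of 0 and none is circled, and in C only Cck and Pcsk1n are circled.

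Gene length moved with the ratios in D. Over all genes tested, the median log2 ratio was -0.72 for genes up to 1000 bases, -0.86 from 1001 to 2000, -0.21 from 2001 to 4000, 0.41 from 4001 to 8000 and 0.69 above 8000 bases. The tested members had a median length of 1527 bases, against 3509 for all genes, and a median GC content of 49.9% against 49.6%. Of the 20 members up to 2000 bases, 17 were lower in D, with a median of -1.43. Of the 13 longer members, 9 were lower, with a median of -0.75. With the length trend of each library removed, 27 of 33 members were below 0 and 6 above, while the median of all genes also fell below 0. Over 2-fold lower were 14 of 33, against 3966 of 15727 genes, and over 2-fold higher were 0, against 1974 genes. The members' median was then -0.81, beside -0.31 for all genes. Without this correction the medians were -1.14 and -0.02, so the members lay nearer to all genes with it.

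Granins remained lower for 6 of 6 under this correction and under every scaling tried. Precursors were lower for 17 of 21, Calcb being the one that turned (0.16). Against 0, 4 of 6 processing genes were then lower, with Pcsk2 at -0.61 and Cadps at -0.34, and Pam stood at 0.43. Their median of -0.38 was near the -0.31 of all genes under this correction, so most of them were not low relative to other genes. Pam is 11892 bases long and Pcsk2 7910. On the TPM scale the median of all detected genes in D was itself shifted by 0.61, and relative to B and C only Calcb (0.31) and Adcyap1 (0.08) had another sign than after TMM. Relative to that shift, 21 of 27 detected members lay below the median gene.

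**Figure D5:**
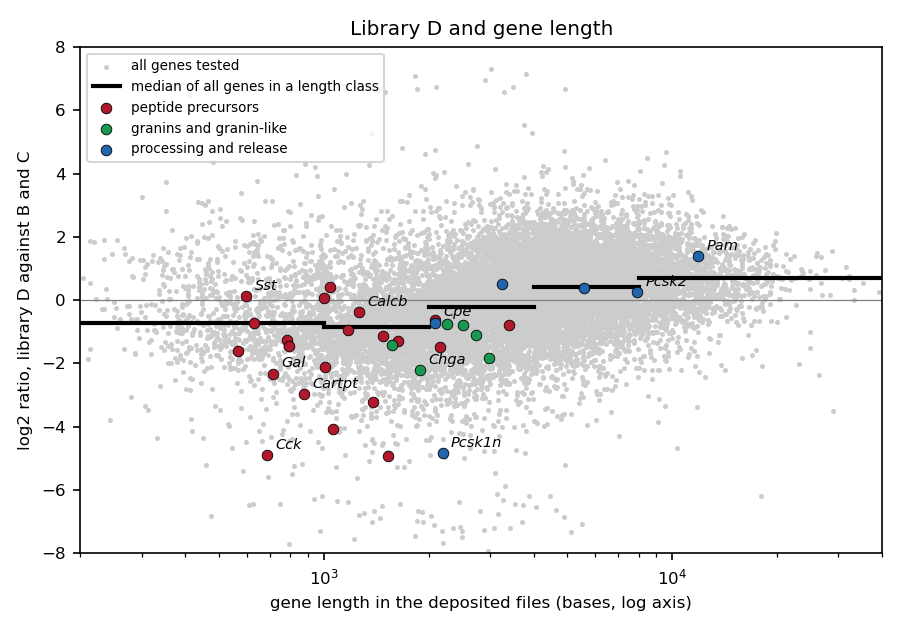
Log2 ratio of library D against B and C plotted on gene length (bases, log axis) for all genes tested (grey; some lie outside the axes) with the median of each length class (black lines) and the members coloured by role. The medians climb from -0.72 for the shortest genes to 0.69 for the longest; 17 of the 20 members up to 2000 bases lie below 0, and Pam lies at the long end above 1.

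Set against B and D, library C gave 2 members past the threshold of the edgeR test with the filter on low counts. Cck was higher by a log2 of 4.37 ± 1.08 (edgeR adjusted p = 0.011) and Pcsk1n by 3.64 ± 0.88 (adjusted p = 0.0089). These p-values set 1 library of a group against the other 2, assume that it varies like them, and are not adjusted for the 3 libraries set apart in turn. These 2 of 33 members compare with 0.757% of all genes called higher in C; no member was called lower (0.0254% of genes), and DESeq2 called none lower either. Both were also called with DESeq2, without the filter, and with the length trend or the length and GC trends removed (Cck 4.06 and Pcsk1n 3.35 for the last). Against B alone, Cck was 3.45 and Pcsk1n 2.82 higher on the log2 scale, and against D alone 5.13 and 5.57. The marker sums of neurons, glia, erythroid and sympathetic cells were not highest in C. Neuron markers divided, with 7 higher and 7 lower in C on the log2 scale, and Prph, Nefl and Nefm were highest in C in TPM. The marker sum of motor neurons was highest in C, with 71.7, 80.4 and 63.2 TPM in B, C and D (2 of 6 detected). Most of it came from Isl2 (65.5, 75.2 and 58.8 TPM). Slc18a3, the other one detected, was highest in B (4.73, 4.15 and 1.67 TPM), as was Lhx3. Chat and Slc5a7 were highest in D, and Mnx1 in C at 0.296 TPM. The motor neuron markers thus did not share the order of their sum. The part of other cells in these differences was not tested.

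An unadjusted p under 0.05 was found for 4 members in C, against 6.91% of genes. Over 2-fold higher in C were 9 of 33 members (14% of genes) and over 2-fold lower 3 of 33 (19.7% of genes). The other 7 that lay over 2-fold higher were Vip and Grp, both at 2.59, Trh at 2.26, Pomc at 1.46, Chga at 1.28, Vgf at 1.15 and Cartpt at 1.06. None of these 7 passed. Against D alone, without B, these 7 ranged from 2.08 for Vgf to 4.46 for Vip. Against B alone, without D, Vip stood at 1.57, Grp at 1.66 and Trh at 1.29, while Pomc at 0.85, Chga at 0.64, Vgf at 0.57 and Cartpt at 0.24 were under 2-fold. Vgf was at -0.0565 once length and GC trends were removed. The 3 lower were Sst at -1.75 ± 1.02, Nppc, with 1 count in C and 14.9-fold lower per total count (95% exact binomial interval 2.56 to 602), and Pyy, also with 1 count and 4.48-fold lower (0.69 to 189). By role the tested precursors were 14 higher and 7 lower, the granins 5 higher and 1 lower, and the processing genes 3 and 3. Granins were 4 higher and 2 lower with DESeq2, without the filter and with either trend removed. Those directions rest on library D: against B alone, 9 of 21 precursors and 2 of 6 granins were higher in C.

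Library B gave no member past the threshold in edgeR (0% of genes) or in DESeq2. None had an unadjusted p under 0.05 (1.11% of genes). Over 2-fold higher were 6 members, against 6.61% of genes, and over 2-fold lower 3, against 16.3%. Granins were higher in B for 6 of 6, with a median log2 ratio of 0.52, and precursors for 16 of 21, with a median of 0.66. Against C alone, without D, they were higher for 4 of 6 and 12 of 21, with medians of 0.10 and 0.19. The 3 fits reuse the same libraries, so a gene low in D tends to be higher in B or C by construction, and their values are not independent of each other.

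Across the detected members, 14 of 27 (51.9%) were lowest in D in TPM, against 19.2% of all detected genes. In B 13 of 27 (48.1%) were highest, against 15.7% of genes. In D 6 of 27 (22.2%) were highest, against 63.1% of genes. Of the processing genes 4 of 6 (66.7%) were highest in D, which is near that share. The spread between libraries was otherwise ordinary: the highest level was a median of 2.31 times the lowest, against 2.35 times for all detected genes. Over 4-fold were 4 of 27 members (14.8%), against 21.8% of genes. These members were Sst, Cartpt, Pcsk1n and Pam.

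Other genes of the same system were measured alongside. Of 29 other peptide precursors in the files, 4 were detected (Sct, Uts2b, Agrp and Rln1). The highest by mean level were Sct, the secretin gene, at 138, 108 and 50.8 TPM in B, C and D, the urotensin-related gene Uts2b at 36.9, 61.3 and 17.1 TPM, Agrp, which encodes agouti-related peptide, at 29.6, 25.1 and 12.6 TPM, and Adm, the adrenomedullin gene, at 3.22, 1.75 and 0.16 TPM. These 4 were lowest in D, where Adm was under 1 TPM. Rln1, the relaxin gene, was instead highest in D, with 1.14, 1.14 and 2.11 TPM. Avp, Oxt, Nps, Hcrt, Ucn3 and Prlh had no counts.

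Of 39 peptide receptor genes, 5 were detected. Oprl1, the receptor of the Pnoc product nociceptin, led with 27.0 TPM in library B, 22.2 in C and 54.9 in D. Ramp3, the gene of a subunit of adrenomedullin receptors, stood at 20.9, 13.9 and 12.7 TPM. Npr2, the receptor of the Nppc product, stood at 12.9, 7.79 and 19.3 TPM, and Npr3, the natriuretic peptide clearance receptor, at 3.43, 4.98 and 29.7 TPM. Sstr3, Tacr2, Ntsr2, Grpr and Trhr had no counts. Sstr2, a somatostatin receptor gene, was the last of the 5, at 6.11, 2.02 and 5.21 TPM. Precursor and receptor were thus both detected for nociceptin and somatostatin, and Nppb was detected beside the clearance receptor gene Npr3. Grp, in contrast, was under 1 TPM in D and its receptor gene had no counts.

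Of 15 other processing enzymes, 8 were detected. Mbtps1, which encodes the site-1 protease, stood at 13.9, 13.1 and 63.7 TPM. Qpct, which forms pyroglutamate at peptide ends, stood at 20.3, 21.8 and 44.2 TPM, its relative Qpctl at 20.96, 17.5 and 28.4 TPM, and the convertase gene Pcsk7 at 10.8, 5.55 and 30.4 TPM. As with Pcsk1, Pcsk2 and Pam, library D was highest for all 4, as it was for 63.1% of all detected genes. Of 19 other genes of dense core vesicle formation and release, 14 were detected. Rab3a, a GTPase of vesicle exocytosis, stood at 195, 572 and 114 TPM, high in C as Pcsk1n was. Rab2a, a GTPase of vesicle formation, stood at 71.5, 199 and 140 TPM, Syt4, a synaptotagmin of these vesicles, at 77.6, 53.7 and 256 TPM, and Rab3d, a relative of Rab3a, at 47.6, 35.8 and 51.0 TPM.

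None of the tested genes of these 4 lists (6, 19, 14 and 18) passed the edgeR test in either direction with D, C or B set apart. At an unadjusted p under 0.05 were 4, 3, 4 and 3 of them in D, 0, 2, 1 and 3 in C, and 0, 0, 1 and 1 in B. DESeq2 called 2 of the other precursors lower in D (Sct and Uts2b), 1 receptor higher (Npr3), 2 processing enzymes higher (Cpm and Mme), and of the vesicle genes Slc18a2 higher and Rab3a lower, with none called in C or B. Over all genes it called 2.45% higher and 2.07% lower in D. The other precursors had a median log2 ratio in D of -1.89, the receptors 0.21, the processing enzymes 0.40 and the vesicle genes -0.51.

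The neuropeptide genes have a well-known promoter element, the cAMP response element TGACGTCA, first studied in the somatostatin gene. It was searched on both strands (it is its own reverse complement) from 250 bases before to 50 after each RefSeq gene start. It was found in 6 of the 32 members with a RefSeq promoter, against 2.03% of 27025 genes: Sst, Cartpt, Ucn, Chgb, Scg2 and Pcsk1. TGACG, which is contained in that element, was found in 20 of 32 members, against 23.0% of genes. The 6 windows are printed because they carry the element, in capitals, with 11 bases on each side, 5′ to 3′ on the gene's strand (RefSeq, GRCm38.p6). They lie at chr16:23890874-23890903 (Sst, minus), chr13:99900777-99900806 (Cartpt, minus), chr5:31138921-31138950 (Ucn, minus), chr2:132781559-132781588 (Chgb, plus), chr1:79440076-79440105 (Scg2, minus) and chr13:75089768-75089797 (Pcsk1, plus).
Sst: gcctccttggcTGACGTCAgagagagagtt
Cartpt: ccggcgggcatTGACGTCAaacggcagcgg
Ucn: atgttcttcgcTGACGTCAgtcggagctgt
Chgb: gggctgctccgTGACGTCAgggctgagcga
Scg2: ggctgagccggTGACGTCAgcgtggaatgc
Pcsk1: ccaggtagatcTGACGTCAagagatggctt

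A match of letters is a description and no evidence of binding. The windows of Chgb and Scg2 lie inside the gene as the files annotate it, the other 4 before it. The 5 detected genes with the element did not share a pattern across libraries: their log2 ratios in D were 0.12 for Sst, -2.97 for Cartpt, -1.11 for Chgb, -0.78 for Scg2 and 0.52 for Pcsk1. Ucn, with the same element, had 2 counts in all.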

How the data were processed

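Counts of reads per gene (count), CPM and RPKM were deposited by the authors in 1 table per library, with exon coordinates and a gene length for 41388 Ensembl genes. Subread, featureCounts 1.4.5 and the build GRCm38.p2 are named in the submitters' processing notes, without their roles. Per the labels' protocols, cDNA was made and amplified from the sorted cells' RNA with a low-input SMARTer kit, which keeps no strand. The annotation release, the strand setting and filters on reads were not given in the sources used here. Checked on the files, the deposited CPM is the count scaled to the sum of its file, and RPKM, also deposited, is that CPM per kilobase. All results come from the deposited counts.

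Symbols were matched for 40254 identifiers, and 1134 had none. TPM came from count and length. Pair ratios used log2(TPM + 0.1), except Tac1/Tac2. Each library was set against the other 2 with edgeR 4.0.16 (TMM, filterByExpr, quasi-likelihood, Benjamini-Hochberg threshold 0.05). The fit was run on simulated counts with a fixed dispersion and no length trend, to see that set folds were recovered. That check does not give the error rates in these libraries. Standard errors are approximate, from the ratio and its F statistic. Alternatives were DESeq2 1.42.0, its size factors, no filter, other detection limits and pseudocounts, CPM, protein-coding TPM, each library left out, and a length trend per library (mgcv 1.9.3, fitted on genes averaging 10 counts or more). The length and GC trend was added after seeing the data. GC came from GENCODE M21 and covered 99.0% of genes that had any count.

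P-values of the edgeR and DESeq2 fits rest on the spread between the pools not set apart, shared across genes. The spread of the lone pool is not measured. Sign-flip p-values rest on the ratios of a pair in each library. Counts from amplified cDNA without molecular identifiers are not independent molecules, so limits for 0 counts cover counting error only. The members and lists were chosen with earlier results of these data known. The rule names every member (values in each library if detected or with over 10 counts in any library), the 4 highest genes of each other list, and the 3 highest of each marker list with markers at 0; marker values are given here only where they stand beside a result, and some genes the rule names are not reported here.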

Additional observations from a re-analysis of the deposited data

How the results depend on the processing

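The 27 detected members became 28 at a limit of 0.5 TPM, 23 at 5 TPM, 26 by CPM, and 27 to 30 with a library left out. Without division by length, mean log2 ratios were 5.93 (bound) for Tac1/Tac2, 3.94 for Scg3/Scg2, 3.71 for Pcsk2/Pcsk1, 0.24 for Scg5/Pcsk2 and 3.86 for Cpe/Pam, and the role shares 17.2% for precursors and 49.4% for processing genes; with a pseudocount of 1 TPM, Pcsk2/Pcsk1 was 2.25. Without the filter, 7 members were called in D, 3 were over 2-fold higher in D and 6 over 2-fold lower in C; DESeq2 called 5 in D. With the length trend, or the length and GC trends, removed, 0 members were over 2-fold higher in D and 3 in B. Of all 15727 genes, 1974 and 1773 were over 2-fold higher in D, and 1107 and 1105 in B. With 1 library left out there is no residual degree of freedom and no test: 1 to 3 members were over 2-fold higher in D, 3 to 6 lower and 5 to 16 higher in C, and 1 to 5 lower and 6 to 19 higher in B. Signs turned for Pcsk1n/Pcsk1 without C (-0.40), for Vgf in C (-0.0565, length and GC removed) and, without C, for Cck (1.68) and Pcsk1n (2.75) in B, where D is then the only reference; without D these were -3.45 and -2.82. The cause of the other shifts was not tested. Of 400 alternative values, 348 kept their call, stayed within the spread or, for counts of members, stayed within a set fold of the main count. A further 12 single-gene values gained a call in D with DESeq2 or without the filter. Depth limits the members under 10 counts, whose order between libraries is not firm.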
